A study of Mus musculus with 2 samples.

Results

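The subject is the set of microRNA-named loci in polyadenylated RNA of the suprachiasmatic nucleus (SCN), the master circadian clock in the mouse hypothalamus. Its members are the rows of the deposited expression table whose name begins with the mouse microRNA prefix mmu-, 277 of 24229 rows. They were chosen by name alone, but with earlier results of these data in view, so their ratios are given as a description and not as a test. They carried 273 distinct names, were 54 to 134 bases long (median 86.0), and lay on 19 autosomes, the X chromosome and the mitochondrial genome. Chromosome 12 held 39 of them, the X chromosome 16 and the mitochondrial genome 1.

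A microRNA is cut in steps from a longer RNA. Drosha and Dgcr8 release a hairpin from the primary transcript in the nucleus, exportin 5 carries the hairpin out, Dicer1 trims it to a short duplex, and an argonaute protein holds the mature strand, whose seed at bases 2 to 8 pairs with target messenger RNAs. Many microRNA genes sit in introns or exons of a host gene and share its transcription, and others have transcripts of their own. A polyadenylated library is made from longer transcripts, such as hosts and primary transcripts, and does not measure the mature strand. Every value below is a count of reads over the interval that bears the microRNA's name, whatever transcript they came from.

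All mice were C57BL/6 wild type, aged 68 days after birth. Per the labels there were 16 of them. They spent 7 days in constant darkness and were then divided into 2 groups of 8, entrained for 4 weeks to a normal T-cycle (NT) or a short T-cycle (ST), a T-cycle being a light-dark schedule of set period. Both groups shared the rest of the handling, and brains were collected at circadian time 4 h when the mice had been in darkness for 5 days. The SCN was dissected from 250 µm slices, and 500 ng of RNA went through poly-A selection and ribosomal RNA depletion before Illumina libraries were made. Poly-A selection is taken here to mean that polyadenylated RNA was kept, though the sources used do not state the fraction. How long the T-cycles were and how many mice stand behind a library is not given in these sources. With 1 library a group there is no estimate of the spread between animals, so differences below are between these libraries and carry no p-value.

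The ST library held 19476800 counts and the NT library 24790727. Counts were divided by size factors to give normalised counts, and a locus was called measured where its mean normalised count over both libraries was at least 50. All 3 SCN markers examined were abundant (the neuropeptide Vip, 168 RPKM in ST and 197 in NT; the neuropeptide Avp, 656 and 563; the G-protein regulator Rgs16, 104 and 92.4). Marker genes of other cells were lower in ST: 5 of 5 of oligodendrocytes (summed normalised counts 95629 in ST and 119856 in NT), 4 of 4 of endothelium (2582 and 3279), 4 of 4 of microglia (3161 and 3773) and 3 of 3 of meninges (735 and 1487). The 2 neuronal markers found, Snap25 and Syt1, were lower as well, by less (35961 and 37626, a ratio of 0.956 with an interval of 0.942 to 0.970). None of these marker genes was at 0. In bulk tissue, fewer cells of a type and less RNA per cell cannot be told apart. What part these marker differences have in the results below was not tested.

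The loci that the main result turns on bear the names mir-2133, mir-2134, mir-2135, mir-2144 and mir-689. Their interval sequences are shown first because rows of different chromosomes repeat one another, which decides how their counts can be read. All are 5′ to 3′ on the row's own strand, read from the mouse build NCBIM37 (also called mm9) at the deposited coordinates, and capitals mark the longest stretch that all rows of the family share.

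The mir-2134 family has 6 rows with 4 distinct sequences and shares 38 bases. The mir-2134-4 rows at chr16:11144248-11144304 (plus strand), chr9:56071492-56071548 (minus) and chr13:9833685-9833741 (minus) are letter for letter the same 57 bases. Row mir-2134-3 at chr9:118584169-118584258 (minus) is 90 bases long with longer flanks. It begins with the bases that end mir-689-1, a row on chromosome 1.
mir-2134-4: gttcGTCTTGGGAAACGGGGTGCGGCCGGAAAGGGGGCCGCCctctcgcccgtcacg
mir-2134-3: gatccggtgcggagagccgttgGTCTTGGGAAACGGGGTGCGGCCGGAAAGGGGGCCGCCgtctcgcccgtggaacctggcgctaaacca
mir-2134-1: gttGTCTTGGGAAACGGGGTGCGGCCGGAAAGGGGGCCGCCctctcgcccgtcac

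The mir-2135 family has 5 rows with 3 distinct sequences and shares 42 bases. Rows mir-2135-1 (chr16:57391345-57391454, minus), mir-2135-2 (chr2:20821605-20821714, plus) and mir-2135-3 (chr6:145881295-145881404, minus) are identical over 110 bases, and mir-2135-5 (chr15:86025489-86025590, plus) shows how the shorter rows differ.
mir-2135-1: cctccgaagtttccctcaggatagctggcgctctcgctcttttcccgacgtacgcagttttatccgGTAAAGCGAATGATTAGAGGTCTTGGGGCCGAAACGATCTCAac
mir-2135-5: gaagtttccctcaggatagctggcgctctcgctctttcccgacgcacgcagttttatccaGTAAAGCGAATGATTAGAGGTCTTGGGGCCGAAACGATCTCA

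The mir-2133 family has 2 rows that share 82 bases, mir-2133-2 at chr17:39984071-39984165 and mir-2133-1 at chr6:3151217-3151307, both on the plus strand. They are shown because the first is the most abundant of all the loci.
mir-2133-2: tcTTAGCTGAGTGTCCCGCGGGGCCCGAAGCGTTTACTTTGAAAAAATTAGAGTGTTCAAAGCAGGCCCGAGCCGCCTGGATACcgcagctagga
mir-2133-1: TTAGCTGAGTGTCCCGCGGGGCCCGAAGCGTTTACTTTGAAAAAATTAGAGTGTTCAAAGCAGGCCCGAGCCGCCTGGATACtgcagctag

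The row mir-689-2 at chr16:11144133-11144241 (plus) ends 6 bases before the mir-2134-4 row of the same chromosome, and 85.3% of its bases are G or C, the highest share of all 277 loci.
mir-689-2: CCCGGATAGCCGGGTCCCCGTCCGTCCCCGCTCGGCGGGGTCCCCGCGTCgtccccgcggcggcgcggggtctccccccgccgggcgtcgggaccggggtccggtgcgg

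A search of NCBIM37 with each locus counted as a copy any stretch of at least 90% identity over at least 90% of the locus. The mir-2135 sequence had 17 places in the genome, of which 5 are rows under that name, and the mir-2144 sequence had 13 places, of which 1 is a row. For mir-2134 there were 9 places with 6 rows, for mir-2133 4 places with 2 rows and for mir-689 2 places, both rows. The copies keep an order. In 10 stretches, on chromosomes 2, 6, 8, 10, 13, 14 and 19, a mir-2135 copy was followed on the same strand by a mir-2144 copy, and in 3 more, on chromosomes 12, 15 and 16, a mir-2143 copy came first. A single stretch on chromosome 3 held mir-2143 and mir-2135 copies alone. In the 3 the mir-2135 copy started 285 bases after the mir-2143 copy. The mir-689 and mir-2134 copies stood 115 bases apart, start to start, on both chromosome 1 and chromosome 16. As background, the mir-2135 stretch in capitals also belongs to the large ribosomal RNA, the kind of RNA that the depletion step is meant to remove. None of the families was compared with ribosomal RNA sequences here, so the others are not set apart from mir-2135 by this. How many of the reads at these loci came from ribosomal RNA was not tested.

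**Figure D1:**
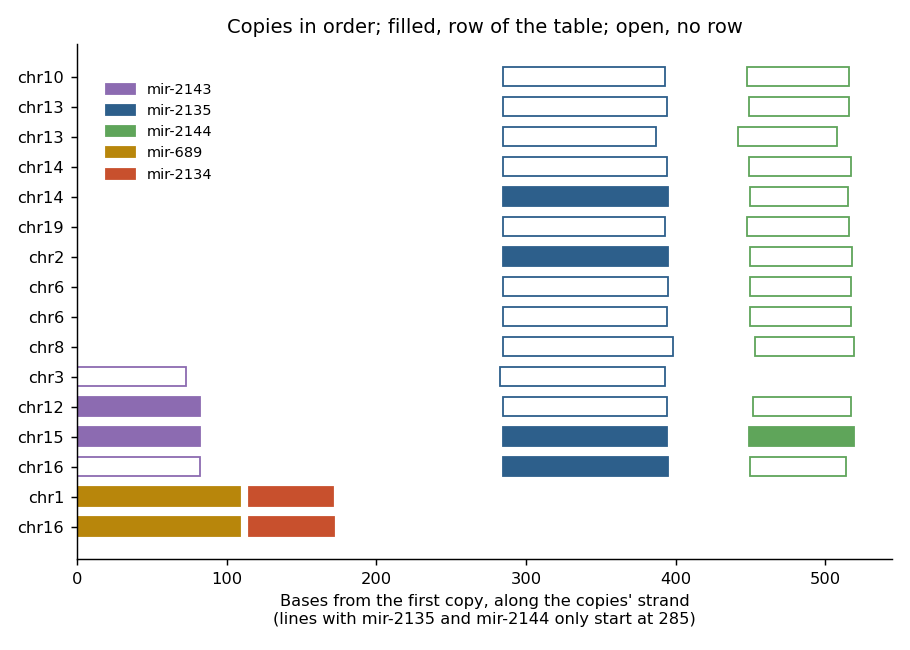
Copies of 5 microRNA-named sequences that lie together in NCBIM37, 1 line per stretch, with bases from the first copy on the x axis; filled boxes are rows of the deposited table and open boxes are copies without a row. The boxes line up across chromosomes, with mir-2135 285 bases after mir-2143 on chromosomes 12, 15 and 16.

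Most microRNA-named loci had few reads. After rounding, at least 1 read was counted at 150 loci in ST, at 180 in NT and at 133 in both, while 80 had none in either library. A count of 0 allows up to 3 reads, so an empty locus is one not detected at this depth. Whether a locus without any read would have a row was not examined, so all such counts are over the rows present. Of the 277 loci 19 were measured (6.86%, against 59.2% of all rows), and 40 had a mean of at least 10. The 19 are those that could be compared in size, and 1 of them, mir-2144, passed only through the NT library (49.4 normalised counts in ST and 129 in NT).

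Among the 19 measured loci, 13 were at least 2-fold lower in ST and 0 were at least 2-fold higher. Over all 14343 measured rows, 0.230% were at least 2-fold lower and 0.0209% at least 2-fold higher. The 95% counting interval of the ratio lay wholly below 1 for the same 13 (10.2% of all measured rows) and wholly above 1 for 0 (7.79%). This interval accounts for counting error alone and holds no part for the spread between animals. It treats reads as independent. Reads lacking molecular identifiers cannot be taken as independent molecules, so it may be too narrow even for counting error. All 13 belong to the families whose sequences are printed above or to mir-2144, they hold 9 distinct sequences under 11 names, and 12 of them have more than 1 copy in the genome. They are therefore not 13 separate measurements. Together they held 6653 counts in ST and 20804 in NT, which is 71.9% and 86.8% of all reads at microRNA-named loci. Their summed ratio was 0.404 (interval 0.393 to 0.415). The other 264 loci together had a ratio of 1.04 (0.983 to 1.09), and the 258 of them below the filter had 1.01 (0.915 to 1.12). Leaving out the 13 for being lower is part of what sets both values. The 264 held 2596 reads in ST and 3164 in NT. Most were at mir-805 (586 and 766), mir-682 (570 and 670) and mir-703 (424 and 492).

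**Figure D2:**
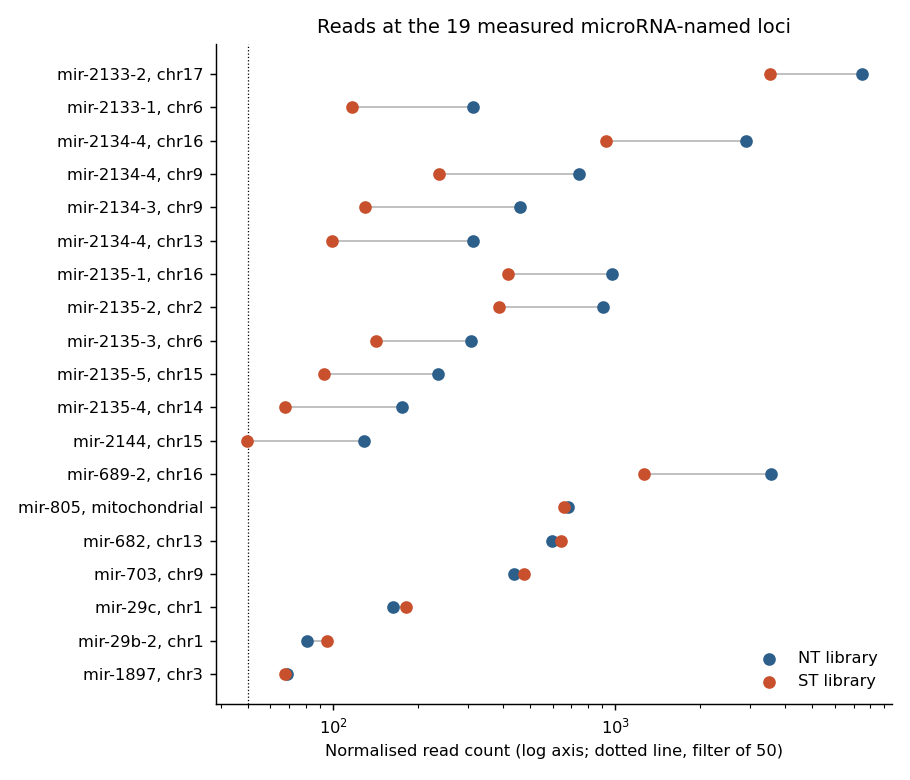
Normalised read count (log axis) of each measured locus in the ST and NT libraries, grouped by family, with a dotted line at the filter of 50. In the upper 13 loci the NT point lies at least 2-fold to the right of the ST point, and in the lower 6 the points nearly coincide.

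The mir-2134 family showed the widest gap. The mir-2134-4 row on chromosome 16 had 929 normalised counts in ST and 2911 in NT, the row on chromosome 9 had 237 and 747, and the row on chromosome 13 had 98.9 and 313. ST was the lower library at each of them. The folds were 3.13 (interval 2.90 to 3.39), 3.15 (2.71 to 3.68) and 3.17 (2.50 to 4.05). These rows cannot be told apart by sequence, and each held an almost fixed part of their joint reads: the chromosome 16 row had 73.4% of them in ST and 73.3% in NT, the chromosome 9 row 18.7% and 18.8%, and the chromosome 13 row 7.86% and 7.90%. The 3 rows therefore give 1 ratio and not 3.

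The row mir-2134-3 differs from the others in that its counts are whole numbers in both libraries and it has 1 full-length copy in the genome. It had 116 reads in ST and 518 in NT, or 130 and 461 normalised counts. It was 3.54-fold lower in ST (2.89 to 4.37), the widest gap of the 13, and its log2 ratio was -1.82. It lies inside an intron of the integrin gene Itga9 on the opposite strand, whose own counts were 186 and 229 (log2 ratio 0.04). The 38 bases that it shares with mir-2134-4 are a part of its 90, and its first bases are those that end mir-689-1. A further row below the filter, mir-2134-1, had 8.77 and 41.5 counts, a ratio of 0.277 (0.118 to 0.579).

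In the mir-2135 family all 5 rows were measured and lower. Row mir-2135-1 had 416 normalised counts in ST and 976 in NT, mir-2135-2 had 388 and 903, and mir-2135-3 had 142 and 309. These are the rows of identical sequence, with folds of 2.35 (2.08 to 2.65), 2.33 (2.06 to 2.64) and 2.18 (1.77 to 2.70). Their parts of the joint reads were 44.0%, 41.0% and 15.0% in ST and 44.6%, 41.3% and 14.1% in NT. Row mir-2135-5 had 93.2 and 236 normalised counts and mir-2135-4, at chr14:105115139-105115245, had 67.4 and 175. Both again were lower in ST, by 2.53-fold (1.97 to 3.28) and 2.60-fold (1.94 to 3.53), and they differ from the identical rows in sequence. Summed over the family, the fold was 2.35 (2.19 to 2.53), against 3.18 (2.99 to 3.39) for the mir-2134 family, so the intervals of the 2 families did not overlap.

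The locus with the most reads, mir-2133-2, had 3542 normalised counts in ST and 7482 in NT. It was 2.11-fold lower in ST (2.03 to 2.20), the smallest fold of the 13. Its relative mir-2133-1 had 117 and 313, a fold of 2.68 (2.15 to 3.37). The row closest to mir-2133-2 that bears no microRNA name, CT010467.3 (ENSMUSG00000045999), starts 882 bases beyond it on the opposite strand and was chosen after its values were seen. Its counts were whole, 276 in ST and 512 in NT, with a log2 ratio of -0.55 and a ratio interval of 0.586 to 0.789. It was lower in ST as well, by less.

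Row mir-689-2 had 1265 normalised counts in ST and 3562 in NT, a fold of 2.82 (2.64 to 3.01), and mir-2144, at chr15:86025648-86025717, had a fold of 2.61 (1.85 to 3.75). The latter lies in a stretch on chromosome 15 with mir-2143-3 and mir-2135-5. These 3 loci together, mir-2144 included, held 130 reads in ST and 415 in NT. Row mir-2143-3 itself had 3 and 5 reads, too few for a direction. The other mir-2143 row, mir-2143-2 on chromosome 12, had 9 and 29 reads, also below the filter, and both rows together were 2.24-fold lower in ST (1.13 to 4.76). Of the loci inside the 2-fold rule, mir-2133-2 and mir-2135-3 came closest to it with log2 ratios of -1.08 and -1.12. The nearest outside by size were mir-29b-2 and mir-29c, on the higher side at 0.24 and 0.15.

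**Figure D3:**
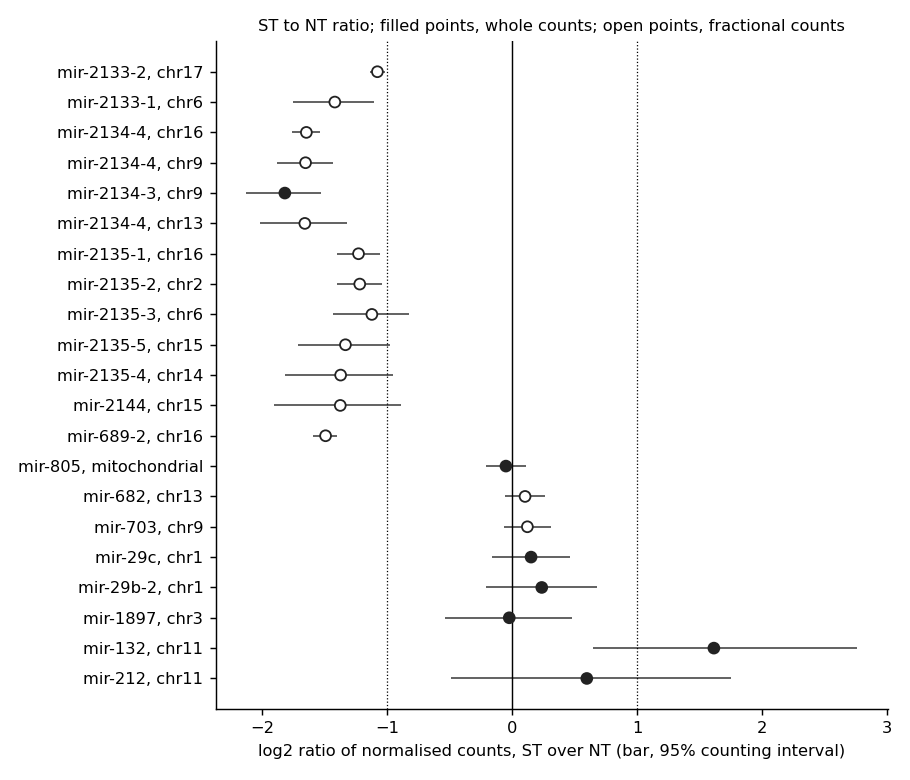
The log2 ratio of ST to NT for the 19 measured loci and for mir-132 and mir-212, with 95% counting intervals; filled points have whole counts, open points fractional counts, and dotted lines mark 2-fold. The 13 lower loci lie between -1.82 and -1.08, the other 6 measured loci between -0.05 and 0.24, and mir-132 lies at 1.61 with a wide interval.

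The same sequences occur in rows without a microRNA name, and these were examined after the values of the loci had been seen. Both clone-named rows and long genes held a copy on the same strand. The clone-named rows with the most reads were lower in ST: AC147020.1 had 2837 reads in ST and 7131 in NT (log2 ratio -0.99, interval of the ratio 0.481 to 0.525), and AC123039.1 had 558 and 1767 (-1.33, 0.362 to 0.439). The thinner ones, AC158656.1 with 17 and 49 reads and AL662902.1 with 8 and 25, had log2 ratios of -1.17 and -1.26. Another, AL773580.1, had 1 read in ST and 0 in NT, and AC166074.3 had 1 and 2, too few for a direction. Long genes that carry a copy outside their annotated exons showed no such gap in their own rows. A gene's row need not count the reads over such a copy. C230081A13Rik had 278 reads in NT, while the mir-2134-4 row within it had 839. The rows of these genes therefore cannot show whether reads over their copies differed. Kcnip1, a potassium channel partner, had a log2 ratio of 0.05, Ica1 0.01, the zinc finger gene Zfp791 -0.03 and Spata5 -0.11. In addition the 78 rows named 5S_rRNA, a structural RNA of the ribosome, held 88 reads in ST and 135 in NT, a ratio of 0.823 (0.622 to 1.08).

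The other 6 measured loci differed between the libraries by less than their counting intervals. The most abundant was mir-805, on the minus strand of the mitochondrial genome (bases 16115 to 16209), with 658 normalised counts in ST and 682 in NT. Row mir-682 had 640 and 596. Row mir-703 had 476 and 438. The libraries were close at all of them, with ratios of 0.966 (0.866 to 1.08), 1.07 (0.959 to 1.202) and 1.09 (0.953 to 1.24). Row mir-682 has 11 copies in the genome and mir-703 has 10, and the counts of both are fractional.

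Those repeated loci sit in very abundant hosts. The interval of mir-703 is inside the untranslated part of Eef1a1, the translation elongation factor that brings aminoacyl-tRNA to the ribosome, which had 43222 reads in ST and 51701 in NT (log2 ratio 0.08). Row mir-682 lies within an exon of the host row CT025556.4, the pseudogene Gm4149 in GENCODE, with 2237 and 2544 reads (0.15). In both cases locus and host differed by at most 0.05 on the log2 scale.

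The loci mir-29b-2 and mir-29c form the neighbouring pair with the most reads among those with whole counts. The miR-29 family is known for targeting the de novo DNA methyltransferases and extracellular matrix genes. The pair lies at chr1:196863234-196863314 and chr1:196863741-196863828 on the plus strand, in an exon of the long noncoding RNA A330023F24Rik in GENCODE. Row mir-29c had 161 reads in ST and 183 in NT, and mir-29b-2 had 85 and 91. Neither library was clearly the higher: the normalised ratios were 1.11 (0.893 to 1.38) and 1.18 (0.867 to 1.60). Row mir-1897, in an exon of Sox2ot, the noncoding transcript that surrounds the stem cell factor Sox2, had 60 and 77 reads, a ratio of 0.983 (0.690 to 1.40). The mature strands of the first pair, from RefSeq (build GRCm38.p6), share a seed, set in capitals.
miR-29b-3p: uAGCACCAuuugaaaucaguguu
miR-29c-3p: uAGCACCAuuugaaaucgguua

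A list of microRNAs linked to the clock or the SCN had 11 rows in the table, and all 11 had a read in NT and 9 in ST. Only the mir-29 rows were measured, and the median log2 ratio of these 2 was 0.19, against 0.00 over all measured rows. The others had at most 30 reads. Shown here are mir-132, whose mature form is induced by light through the CREB pathway in the SCN, and its neighbour mir-212, which is cut from the same transcript and shares its seed.
miR-132-3p: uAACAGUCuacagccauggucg
miR-212-3p: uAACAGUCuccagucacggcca

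At chr11:74987167-74987267, mir-132 had 30 reads in ST and 12 in NT, all whole. ST was the higher library, with a normalised ratio of 3.16 (1.57 to 6.77). Row mir-212 had 17 and 14 reads, a ratio whose interval (0.711 to 3.36) holds 1. Both lie on the plus strand in an intron of the noncoding host row AL603905.3, called 1700016P03Rik in GENCODE, which had 186 and 196 reads and a log2 ratio of 0.26 (ratio interval 0.975 to 1.47). All of mir-132, mir-212 and their host were higher in ST in size. Of these single rows the interval excludes 1 only for mir-132, a locus below the filter that rests on 30 and 12 reads. Summed, mir-132 and mir-212 had 47 and 26 reads, a ratio of 2.28 (1.38 to 3.84). That sum holds the mir-132 reads and is not separate from them. The adjusted p of mir-132 was 0.497 in the authors' deposited table. Row mir-219-2, also on the list, had 5 and 9 reads, which is too few to give a direction.

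The brain list, with mir-124, mir-9, mir-7 and let-7 among its members, had 18 rows with 44 reads in ST and 57 in NT in all, and none was measured. The highest was mir-7a-1, which lies in an intron of Hnrnpk, with 10 and 9 reads. Neuronal mir-124 was read at 2 rows, with 3 and 5 reads for mir-124-2 and 2 and 2 for mir-124-1. The mature forms of these microRNAs are among the most abundant in brain, and these values say nothing of them. Labels of other cells were as sparse: mir-338 and mir-219-2, of oligodendrocytes, had 9 reads together in ST and 12 in NT, mir-126, of endothelium, had 2 and 2, and no row named for mural or blood cells was found. Whether a missing row stands for missing reads was not examined.

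The imprinted cluster on chromosome 12, transcribed from the maternal copy as the noncoding RNAs Meg3, Rian and Mirg, had 28 rows of its list in the table. They held 144 reads in ST and 148 in NT, a summed ratio of 1.23 (0.969 to 1.56), and none was measured. Reads were concentrated at the far end. The last 18 neighbouring loci, from mir-380 to mir-410, held 123 reads in ST and 131 in NT, a ratio of 1.19 (0.919 to 1.53), whereas the 10 from mir-493 to mir-136 held 15 and 10. In between, the Rian group of mir-341, mir-1188 and mir-370 held 15 and 26, a ratio of 0.728 (0.359 to 1.43). Of that group only mir-370 is in the list. Also outside the list are mir-666, counted among the 18, and mir-432, counted among the 10. Row mir-410 had 23 and 30 reads, mir-369 20 and 22, mir-377 17 and 18, and mir-541 16 and 10. All of these lie within Mirg, and neither library was consistently the higher. Meg3, whose row contains the first of these loci, mir-770, had 70242 and 83773 reads and a log2 ratio of 0.08.

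**Figure D4:**
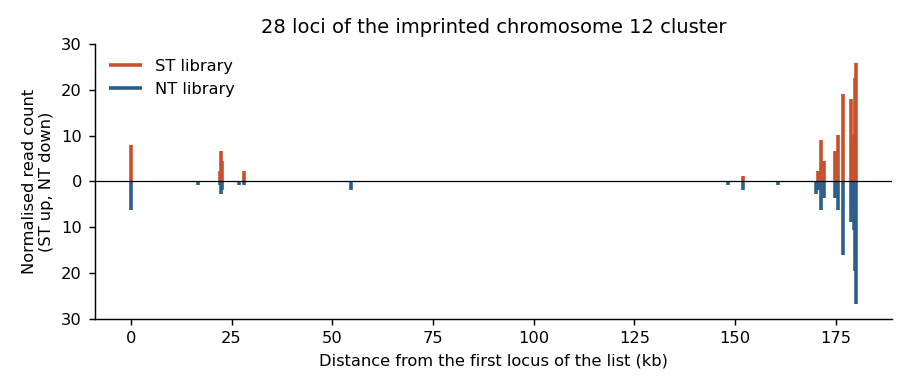
Normalised read count along the imprinted cluster of chromosome 12, by distance in kb from the first listed locus, with ST drawn upward and NT downward. Reads gather at 170 to 180 kb, where mir-410 reaches 25.8 in ST and 26.7 in NT, and the libraries mirror each other.

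Whether a count was whole followed the neighbourhood of the locus. A count was called whole where it lay within 1e-06 of a whole number in both libraries, which held for 85 loci, while 192 were fractional. A host was taken as a row without a microRNA name that contains the whole locus on the same strand, and 155 loci had one. Of these 91.0% were fractional, as were 32 of the 33 loci with rows on the opposite strand only, but only 21.3% of loci in no other row. Of the 19 fractional loci in no row, 13 had more than 1 copy in the genome, the lower families among them. The measured loci with whole counts had a median log2 ratio of -0.02 (5 loci, from mir-2134-3 at -1.82 to mir-29b-2 at 0.24), and those with fractional counts -1.35 (14 loci). Over all measured rows the medians were -0.01 for whole and 0.00 for fractional counts.

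By the GENCODE annotation, 58 loci fall in an exon or untranslated region of a gene on the same strand, 115 in an intron, 33 in a gene of the opposite strand only and 71 in no annotated gene. Over all loci the summed ratio of ST to NT was 1.07 (0.997 to 1.15) for exonic loci, 0.499 (0.462 to 0.539) for intronic ones, 0.353 (0.338 to 0.369) for those in a gene of the opposite strand and 0.503 (0.486 to 0.522) for those in no annotated gene. The lower loci hold most reads of the last 3 classes. With the list of mir-2134 and like names set aside, a list chosen because these names were known to be lower, the summed ratio was 1.07 (0.998 to 1.15) for exonic loci, 1.12 (0.964 to 1.30) for intronic ones, 0.994 (0.571 to 1.71) for the opposite strand and 0.9998 (0.904 to 1.10) for loci in no annotated gene. These last values describe the remaining loci, and the choice of the list removed is part of what sets them. A few loci also hold most of the reads. In no annotated gene, mir-805 alone held 586 of 705 reads in ST and 766 of 890 in NT. Of the 1500 and 1770 exonic reads, mir-682 held 570 and 670, and mir-703 held 424 and 492. The summed ratios therefore do not describe a typical locus of a class. Of the 58 exonic loci 39 had a read in either library, of the 115 intronic loci 75, and of the 71 in no gene 67. Counts were fractional, and so able to round to 0, at 49, 96 and 15 of them. A locus without any read may have no row, so these are not rates of detection.

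Host rows themselves were close between the libraries. The 155 hosted loci had 141 distinct hosts, of which 133 were measured, with a median log2 ratio of 0.01 and 0 past 2-fold. The range ran from -0.98 for Igf2, the insulin-like growth factor that hosts mir-483 and is also in the meningeal marker list, to 0.31 for 3110082I17Rik. Row mir-483 itself rounded to 0 reads in both libraries. Reads over a hosted locus were far thinner than over its host: of 146 loci in a measured host, 106 were under 10% of the host's RPKM and the median was 2.91%. Intronic and exonic loci are pooled in these values. No other intervals within hosts were compared, so the thinness is not shown to be particular to microRNA-named loci. Above the host's own level were 7: mir-199b, mir-208a, mir-2134-4 on chromosome 9, mir-2135-1, mir-344-2, mir-374 and mir-421.

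Of the hosted loci 14 had a mean of at least 10, and 9 of these were within 0.5 of the host's log2 ratio. Row mir-677, inside the ATP synthase gene Atp5b, had 38.2 and 50.6 counts and a log2 ratio of -0.09 beside -0.01 for the host. Row mir-686, in an exon of the proteasome gene Psmb5, had 37.8 and 51.3 counts and -0.09 beside 0.07. On the X chromosome mir-374 and mir-421, which are neighbours within the noncoding row AL683845.1, had 0.22 and 0.33 beside 0.26. In each of these cases the host's value lay within the counting interval of the locus.

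More than 1 log2 unit from the host were 3 loci. The mir-2134-4 row on chromosome 9 had a log2 ratio of -1.65, and the gene whose intron holds it, C230081A13Rik, had -0.02 with 217 and 278 whole reads. Row mir-2135-1 had -1.23 beside -0.10 for 2610528E23Rik. The third was mir-132, which was 1.35 above its host. For the lower loci the counting interval of the locus did not reach the host's value in either case.

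**Figure D5:**
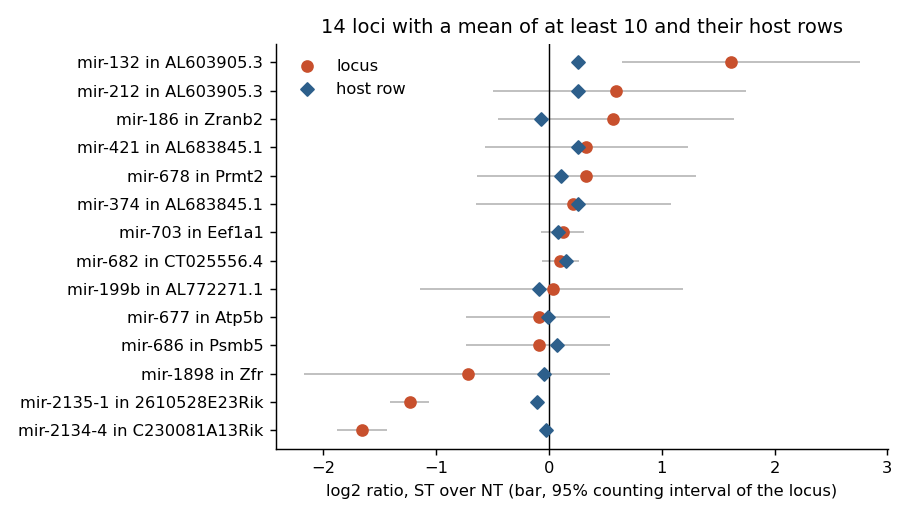
The log2 ratio of ST to NT of 14 hosted loci with a mean of at least 10 (circles, with the 95% counting interval) and of their host rows (diamonds). The hosts stay between -0.10 and 0.26, and the circles of mir-2134-4, mir-2135-1 and mir-132 lie away from their diamonds.

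Genes of the microRNA pathway were measured as messenger RNAs, 27 of them, and none was past 2-fold. Their median log2 ratio was 0.01, beside 0.00 over all measured rows, with 16 higher and 11 lower in ST. The interval lay above 1 for 3 of the 27 and below 1 for 3, close to the shares over all measured rows, 7.79% above and 10.2% below. In nuclear processing, Drosha (row Rnasen) had 2655 reads in ST and 3292 in NT, a log2 ratio of 0.03, and its partner Dgcr8 had 853 and 1050, or 0.04. The exporter Xpo5 had 1971 and 2478 (0.01), and the cytoplasmic enzyme Dicer1 had 1943 and 2580 (-0.07). The libraries were alike for these enzymes within the counting intervals.

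Among the effectors, the argonautes Eif2c1 to Eif2c4 had log2 ratios of -0.09, 0.01, 0.15 and -0.04. Tnrc6b and Tnrc6a, scaffold proteins that link argonautes to deadenylases, had 2219 against 2446 reads and 4022 against 4743, with log2 ratios of 0.20 (ratio interval 1.08 to 1.21) and 0.10 (1.03 to 1.12). These and Eif2c3 are the 3 whose interval lay above 1. The nuclear exonuclease Xrn2, at -0.13 (0.843 to 0.993), was among the 3 below 1, with Ddx5 at -0.03 and Eif2c1. All of these are small beside the gap at the lower loci.

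The authors' deposited table rests on 1 library per group as well. At an adjusted p of at most 0.05 it called 13 microRNA-named loci lower in ST, out of 39 rows called lower (0.161% of all rows), and 0 higher (0.0413% of all rows). The 13 called are the 13 past 2-fold here. The authors' folds at these loci are the same values as the ratios here, for example 0.319 for mir-2134-4 on chromosome 16. The match is therefore no separate support. Their adjusted p in the authors' deposited table ran from 5.51e-55 for mir-2134-4 on chromosome 16 to 0.00277 for mir-2144, and the next locus, mir-2134-1, had 0.322.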

How the data were processed

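RNA of 2 libraries, ST and NT, was measured by sequencing. Per the submitters' processing notes, CASAVA 1.8.2, TopHat 1.2, DESeq and the build mm9 were used, with no role or order given; the counter is not given in the sources used here. Per the file headers, the authors deposited estimated counts (RC), RPKM and RPM values per row, and a fold change (a ratio of ST to NT), its log2 and a p-value with adjusted p-value. RPM and 3 columns of mean values were not used.

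Counts were rounded, and each library was divided by its size factor from the median of ratios (ST 0.890, NT 1.12). Log2 ratios use a pseudocount of 0.5, and folds none. The 95% interval is a Clopper-Pearson (exact binomial) interval for the part of a row's reads that is from ST, rescaled. With 1 library per group no test was possible, and a 2-fold rule stood in its place. Chromosome and strand codes were read by comparison with GENCODE vM1, in which 99.8% of matched rows had the same strand. Copies were searched with blastn 2.17.0. RefSeq (GRCm38.p6) mature sequences matched 215 loci by name, 214 of which hold one in the NCBIM37 sequence. Members and lists were chosen with earlier results of these data known. Loci were named by extreme ratio, abundance, list membership and nearness to the 2-fold rule, together with their hosts; genes of other rows with copies were chosen after their values were seen. The functions were tested on simulated data. Alternatives were other scalings (total counts, TMM of edgeR 4.0.16), filters, pseudocount, size rules and host definitions.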

Additional observations from a re-analysis of the deposited data

How the results depend on the processing

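No paired analysis was possible because there was 1 library a group, and none could be left out. Total-count and TMM scaling kept the count of 13 lower and 0 higher loci, and the log2 ratios of 21 named loci stayed within their counting intervals in 63 of 63 recomputed values. The lower count became 68 with no filter, which admits loci of few reads, 4 at 3-fold, since the other folds lie between 2 and 3, and 1 with whole counts only (mir-2134-3), which leaves 5 measured loci; the higher count became 2 with a filter of 10 and 32 with no filter. The median log2 ratio of measured whole-count loci moved from -0.02 to -0.93 with a filter of 200 and to -0.30 as a mean. The filter of 200 leaves only mir-805 (-0.05) and mir-2134-3 (-1.82), so -0.93 is midway between them and describes neither. The median of fractional loci was -1.30 with a pseudocount of 5, -1.10 and -1.23 with filters of 10 and 200, and -1.17 as a mean. For mir-2134 and like names the median was -1.32 with a pseudocount of 5, -1.46 with a filter of 200, -1.42 as a mean and -1.82 with whole counts only. Loci above the filter were 14.4% at 10, 4.69% at 200 and 71.1% with 1 read in either library. At the depth of these libraries, 258 of 277 loci are too thin for a single ratio.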
